A study of Homo sapiens with 9 samples.

Results

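The genes described here are 40 members of glycolysis and of the cellular response to low oxygen, chosen by symbol from the 21170 features of the deposited count table. They comprise 17 enzymes of glycolysis and lactate formation, 12 targets of the hypoxia-inducible factor (HIF) that act outside glycolysis, and 11 transporters, regulators and components of the oxygen sensor. All 40 were found by their symbol, and all 40 passed the filter on low counts that left 13713 genes for testing. They were measured by sequencing poly(A) RNA of HaCaT, an immortal line of skin keratinocytes that arose without an introduced oncogene. The 9 libraries form 3 groups of 3: cells overexpressing a mutant FTO whose demethylase activity is disrupted (mut-FTO), cells overexpressing the wild-type enzyme (FTO), and cells that received the empty vector alone (Vector). FTO is an enzyme that erases methyl marks on adenosines of RNA. By label, mut-FTO and FTO share the overexpression and differ in demethylase activity, which RNA counts do not measure. The labels name no promoter for the construct, do not say whether a group was a clone, and give no culture conditions, oxygen and glucose included. A difference between groups therefore cannot be told apart from one between clones. Separate cultures are not stated for the 3 libraries of a group, and the spread behind every p-value may therefore be technical.

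Glycolysis splits glucose into pyruvate and yields ATP without oxygen. Glucose enters through carriers of the SLC2A (GLUT) family, hexokinase traps it, phosphofructokinase sets the pace, and lactate dehydrogenase and the SLC16A (MCT) carriers dispose of the end product. HIF is a pair of transcription factor subunits, of which the alpha subunit (HIF1A or EPAS1) is marked for destruction by prolyl hydroxylases (EGLN) while oxygen is present. When oxygen falls, the alpha subunit persists, binds DNA at sites with a short core sequence, and raises glycolytic enzymes, glucose carriers and genes of blood vessel growth, acid balance and mitochondrial turnover. The protein and not the RNA of HIF1A is the main point of that control, and RNA counts cover genes of the pathway, not the HIF protein. Bulk RNA also cannot tell fewer cells with a transcript from less transcript per cell.

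Libraries held 32222203 to 37846027 counts. FTO itself stood at 49.7, 82.7 and 64.3 CPM (counts scaled to the normalized library size) in mut-FTO, 69.6, 77.1 and 62.6 CPM in FTO, and 18.4, 17.0 and 25.8 CPM in Vector. The counts do not separate the introduced transcript from the cells' own. This level tells Vector from both other groups, whereas the columns of FTO and mut-FTO were told apart by their letter codes alone. Vector replicate 3 stood apart from the other libraries: mitochondrially encoded genes took 14.97% of its counts, against 3.8% to 7.45% in the other 8. Some results are given with and without this library, and other differences from Vector are given with all libraries only. Within its group mut-FTO replicate 2 also differed from replicates 1 and 3. Loci assembled from the reads took 3.17% of its counts, against 0.87% and 0.79% in those. It was the highest of the 9 libraries for 8 of the 17 enzymes, and 1 alternative fit leaves out both it and Vector replicate 3. Some results are given without mut-FTO replicate 2, and the cause of its difference was not tested. The 10 keratinocyte markers summed to 20841 to 26432 CPM in mut-FTO, 16338 to 16900.0 CPM in FTO and 14456 to 16718 CPM in Vector, and 3 of them (KRT5, KRT14 and KRT15) rose in mut-FTO against Vector by edgeR. Another 4 had a fitted difference below 0, 2 of them at an unadjusted p below 0.05. Among these TP63 had log2 −0.50 (edgeR adjusted p = 0.174), and −0.24 without Vector replicate 3. The part of these markers in the results on mut-FTO was not tested. Of 29 markers of fibroblasts, leukocytes, melanocytes and endothelial cells 7 had no count in any library, among them PECAM1 of endothelium, THY1 of fibroblasts and TYROBP of leukocytes. Their lists summed to at most 10.8, 109.9, 2.65 and 1.73 CPM. The leukocyte sum, led by CD68, a lysosomal protein, was 69.5 to 109.9 CPM in mut-FTO, 66.5 to 74.4 CPM in FTO and 67.4 to 90.6 CPM in Vector. Within these lists CD14, a monocyte receptor, averaged 27.6 ± 3.03 CPM in mut-FTO, 16.2 ± 1.10 in FTO and 13.7 ± 2.73 in Vector (SD, n = 3 each), and was called higher in mut-FTO against Vector (edgeR adjusted p = 0.006). DCN, a fibroblast proteoglycan, averaged 2.15 ± 0.857 CPM in mut-FTO, 0.784 ± 0.392 in FTO and 0.0373 ± 0.0646 in Vector (SD, n = 3 each), and was called higher in both against Vector (edgeR adjusted p = 0.0013 in mut-FTO and 0.048 in FTO). Of the 4 tested leukocyte markers 2 had a fitted difference below 0 in mut-FTO against Vector, CD3E (log2 −0.76) and CD68 (log2 −0.079). Of the 4 tested fibroblast markers 2 did, COL1A1 (log2 −0.26) and LUM (log2 −0.25). In FTO against Vector CD3E had log2 −1.86, CD68 −0.19 and COL1A1 −0.98, none of them called by edgeR. The part of markers of other cell types in the results was not tested.

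In mut-FTO against Vector, SLC2A3 (the glucose carrier GLUT3), VEGFA (a blood vessel growth factor) and CA12 (a carbonic anhydrase of the cell surface) fell, and ALDOC (aldolase C) rose. The other 36 members did not pass an adjusted p of 0.05 in edgeR's quasi-likelihood test, with Benjamini-Hochberg adjustment over all 13713 genes. These 4 calls are 10% of the members, beside 7.78% of all genes tested (3.27% higher and 4.51% lower), so the share of members called was near the background. In FTO against Vector a single member, MXI1, rose, which is 2.5% of the members beside 0.744% of all genes (0.306% higher and 0.438% lower). In mut-FTO against FTO a single member, SLC2A3, fell, again 2.5%, beside 2.33% of all genes (1.13% higher and 1.2% lower). The 3 genes that mark the set, SLC2A3, MXI1 and ALDOC, did not all move in 1 direction. SLC2A3 was lower in every mut-FTO and FTO library than in every Vector library, and MXI1 and ALDOC were higher. Against Vector, SLC2A3 and ALDOC passed the threshold in mut-FTO only and MXI1 in FTO only.

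Short of the adjusted threshold, more members lay higher than lower in FTO against Vector, and more lower than higher in mut-FTO against FTO. At an unadjusted p below 0.05, edgeR gave 10 members higher and 3 lower in FTO against Vector, beside 4.94% and 6.95% of all genes, and 1 higher and 6 lower in mut-FTO against FTO, beside 7.3% and 6.69%. In mut-FTO against Vector it gave 5 higher and 3 lower, beside 10.1% and 11.0%. The libraries of 18 members lay higher in FTO than in Vector without overlap and those of 3 lower (52.5% in all, beside 21.0% of all genes). Between mut-FTO and FTO 2 members lay higher and 17 lower without overlap (47.5%, beside 29.0%), and between mut-FTO and Vector 7 higher and 3 lower (25.0%, beside 24.0%). FTO against Vector and mut-FTO against FTO share the FTO libraries, so their counts are not independent. The members were chosen with earlier results of these data known, so a share above that of all genes is no test of the set.

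**Figure D1:**
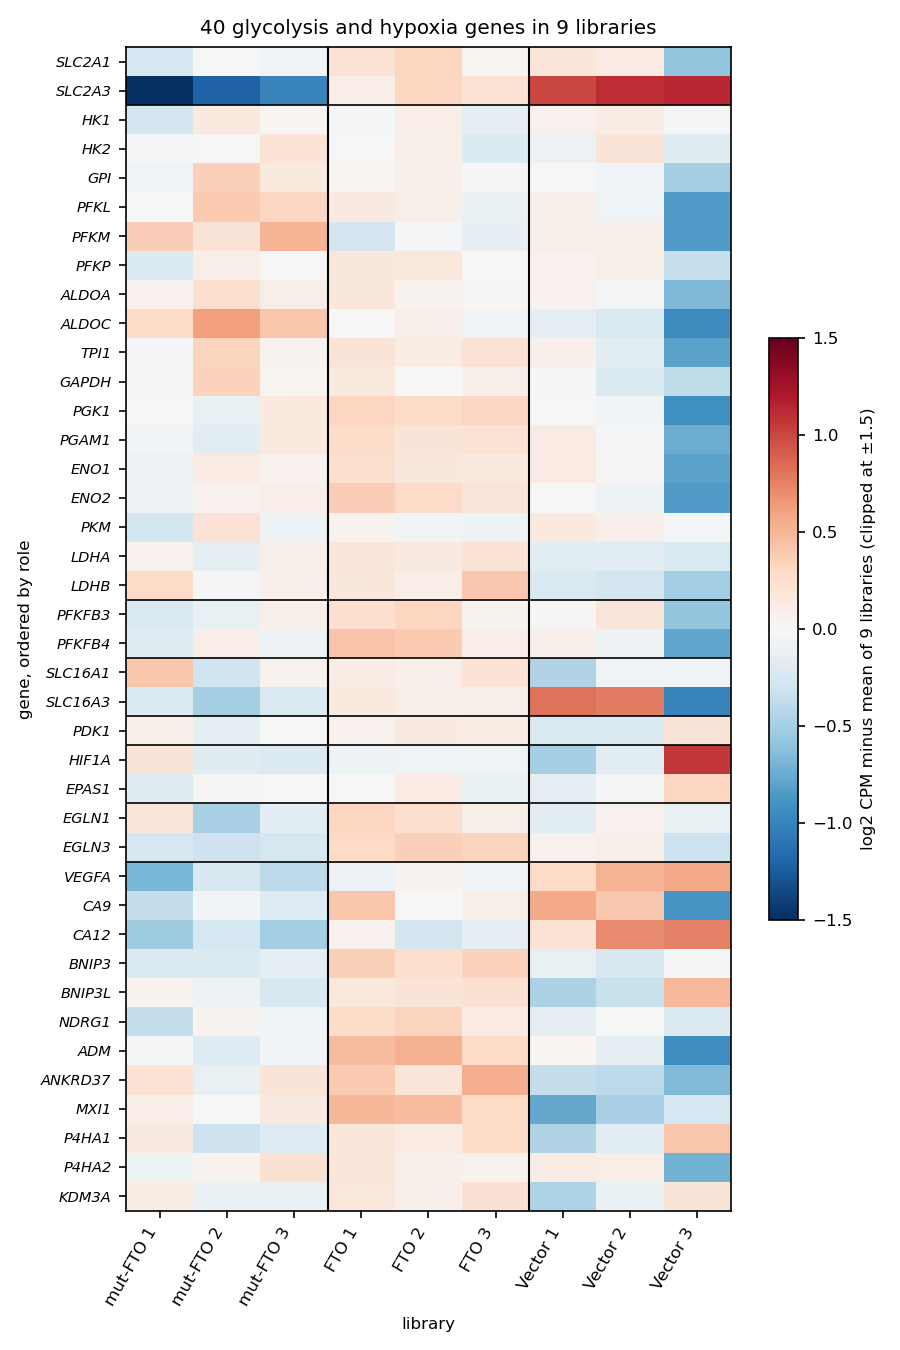
Level of each of the 40 genes (rows, ordered by role with lines between roles) in each of the 9 libraries (columns), as log2 CPM minus the mean of the gene over the 9 libraries, with colours clipped at 1.5. SLC2A3 is low in mut-FTO, intermediate in FTO and high in Vector, and Vector replicate 3 has the lowest level of the 9 libraries for 14 of the 17 glycolytic enzymes.

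SLC2A3 separated all 3 groups from each other. It encodes GLUT3, a glucose carrier of high affinity that is best known from neurons. Its level was 6.11, 8.32 and 9.62 CPM in mut-FTO, 20.6, 24.0 and 22.3 CPM in FTO, and 38.5, 41.5 and 42.2 CPM in Vector, so that each mut-FTO library lay below each FTO library, and each FTO library below each Vector library. It was 5.08-fold lower in mut-FTO than in Vector (log2 −2.35, SE 0.20; adjusted p = 2.05e-05, edgeR quasi-likelihood test). Against FTO, mut-FTO was 2.78-fold lower (log2 −1.48, SE 0.19; adjusted p = 0.00198, same test). Both calls held in all 19 alternatives, which include leaving out any library. The difference of FTO from Vector, log2 −0.87 (SE 0.19), missed the threshold with an adjusted p of 0.0593 by edgeR. It passed in 6 of 19 alternatives, among them DESeq2, limma-voom and the fit without Vector replicate 3 (adjusted p = 0.00716). SLC2A14, a near-identical copy that could share reads with SLC2A3, had 2 to 15 counts per library, against 226 to 1496 for SLC2A3.

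SLC2A1, which encodes GLUT1, the main glucose carrier of keratinocytes, did not show this order. Its values were 259, 313 and 299.9 CPM in mut-FTO, 360.2, 389.8 and 320.4 CPM in FTO, and 354, 339 and 206 CPM in Vector. FTO libraries lay above mut-FTO libraries without overlap, but both groups overlapped Vector, where replicate 3 was the lowest of all 9. Its log2 difference was −0.044 in mut-FTO against Vector (SE 0.20), 0.25 in FTO against Vector (SE 0.20) and −0.30 in mut-FTO against FTO (SE 0.20), none past the threshold (edgeR adjusted p = 0.57 to 0.928). Per kilobase of transcript SLC2A1 was the more abundant of the pair in every library. The share of SLC2A3 in the per-kilobase sum of both carriers was 2.16, 2.43 and 2.92% in mut-FTO, 5.08, 5.46 and 6.14% in FTO, and 9.26, 10.3 and 16.1% in Vector. This share was lowest in mut-FTO and highest in Vector, with no overlap between groups, and its highest value came in Vector replicate 3, where SLC2A1 was lowest.

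**Figure D2:**
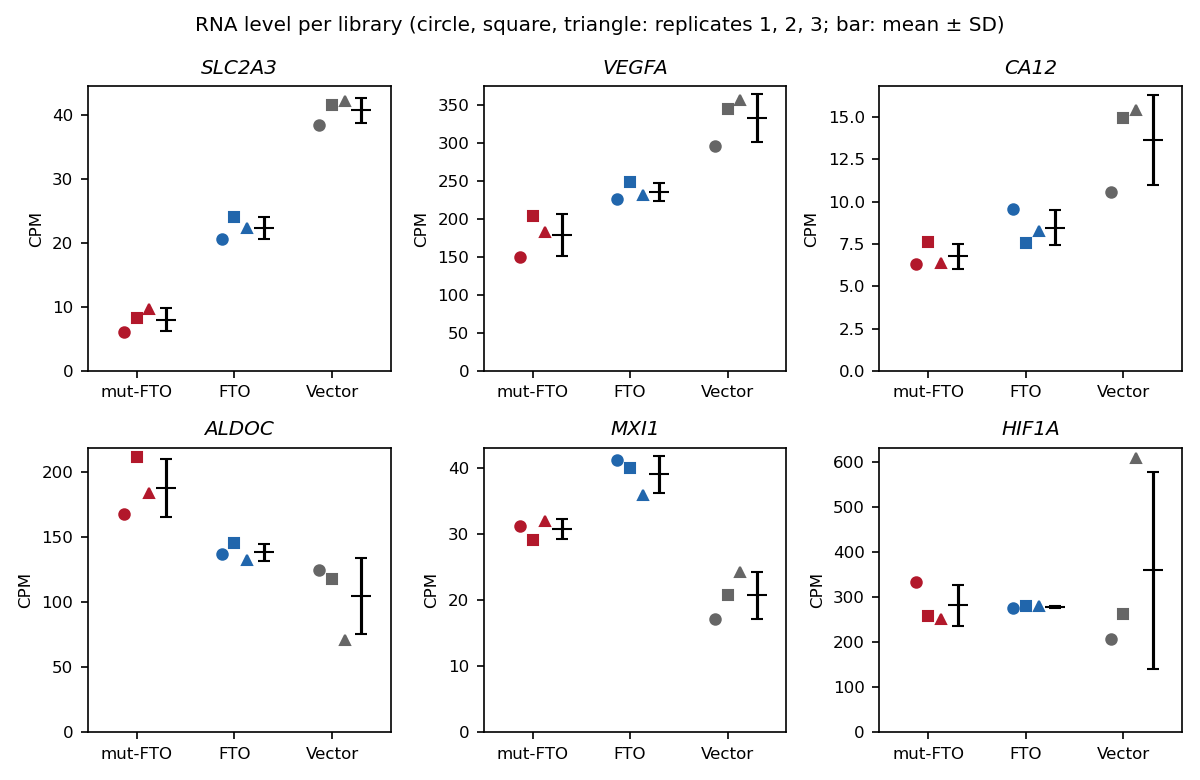
CPM (vertical axes, from 0) of the 5 genes called in any comparison and of HIF1A, in the mut-FTO, FTO and Vector libraries; points are single libraries, with circles, squares and triangles for replicates 1, 2 and 3, and bars show the mean ± SD. SLC2A3, VEGFA and CA12 are lower in every mut-FTO and FTO library than in every Vector library, ALDOC and MXI1 are higher, and HIF1A at 608 CPM sets Vector replicate 3 apart.

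Among the 17 enzymes, ALDOC alone was called by edgeR with all libraries. It encodes the aldolase isoenzyme typical of brain, which cleaves fructose 1,6-bisphosphate as the abundant ALDOA product does. ALDOC stood at 168, 212 and 184 CPM in mut-FTO, 137, 146 and 133 CPM in FTO, and 125, 118 and 71.0 CPM in Vector. Every mut-FTO library lay above every FTO library, and every FTO library above every Vector library, with Vector replicate 3 the lowest. The level was 1.80-fold higher in mut-FTO than in Vector (log2 0.84, SE 0.20; adjusted p = 0.023, edgeR). Without Vector replicate 3 the log2 difference was 0.62 (adjusted p = 0.00234), and the call was lost without mut-FTO replicate 2 or 3, with a highest adjusted p of 0.104, and in the fit of only the 6 libraries compared. Differences of FTO from Vector (log2 0.40, SE 0.20; adjusted p = 0.453) and of mut-FTO from FTO (log2 0.44, SE 0.20; adjusted p = 0.353) did not pass by edgeR. Without Vector replicate 3 the difference of mut-FTO from FTO passed (adjusted p = 0.0132). Per kilobase, ALDOC made up 3.62% ± 0.185 of aldolase transcript (ALDOA and ALDOC) in mut-FTO, 2.81% ± 0.199 in FTO and 2.53% ± 0.0804 in Vector (SD, n = 3 each). In GENCODE release 29, 296 of its 2928 exonic bases, or 10.1%, are shared with an antisense gene, and whether counting used strand is not known.

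Promoters are shown for the called members that the RefSeq table of promoters holds (ALDOC, CA12 and MXI1) and for BNIP3, the HIF target of lowest p in mut-FTO against FTO, because HIF reads its core sequence in such regions. Each runs 5′ to 3′ over 300 bases, 250 before and 50 from the start site, in the RefSeq build GRCh38.p14. Capitals mark ACGTG on either strand, a form of the HIF core, which reads CACGT where it lies on the other strand. Where this match is part of CACGTG, it overlaps the sequence that MYC, MAX and MXI1 proteins bind.
ALDOC, chr17:28576846-28577145, minus strand: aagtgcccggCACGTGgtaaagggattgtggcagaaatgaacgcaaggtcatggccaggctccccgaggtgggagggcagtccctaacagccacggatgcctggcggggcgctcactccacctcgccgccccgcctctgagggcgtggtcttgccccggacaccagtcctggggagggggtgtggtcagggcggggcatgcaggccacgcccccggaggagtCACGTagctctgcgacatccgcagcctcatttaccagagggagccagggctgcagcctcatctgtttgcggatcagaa
CA12, chr15:63381797-63382096, minus strand: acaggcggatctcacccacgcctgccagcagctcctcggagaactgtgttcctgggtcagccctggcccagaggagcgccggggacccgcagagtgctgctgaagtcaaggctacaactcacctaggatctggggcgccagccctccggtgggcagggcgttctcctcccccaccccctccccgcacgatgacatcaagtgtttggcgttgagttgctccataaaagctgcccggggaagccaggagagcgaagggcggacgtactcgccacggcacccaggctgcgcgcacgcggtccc
MXI1, chr10:110209981-110210280, plus strand: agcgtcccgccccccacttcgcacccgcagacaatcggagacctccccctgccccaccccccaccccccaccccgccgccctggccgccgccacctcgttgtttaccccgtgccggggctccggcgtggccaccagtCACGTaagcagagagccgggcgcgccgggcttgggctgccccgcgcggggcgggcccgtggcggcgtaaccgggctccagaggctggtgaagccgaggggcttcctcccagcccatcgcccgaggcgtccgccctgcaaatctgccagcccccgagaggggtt
BNIP3, chr10:131981874-131982173, minus strand: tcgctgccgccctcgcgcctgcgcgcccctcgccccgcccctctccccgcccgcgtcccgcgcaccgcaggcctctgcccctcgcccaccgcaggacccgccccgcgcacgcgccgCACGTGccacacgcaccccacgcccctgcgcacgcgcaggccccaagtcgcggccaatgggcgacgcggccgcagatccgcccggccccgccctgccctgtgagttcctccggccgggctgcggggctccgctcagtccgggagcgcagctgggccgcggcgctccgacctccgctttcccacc
The ALDOC promoter holds CACGTG 240 bases before the start site and CACGT 28 bases before it. The MXI1 window, 1 of 3 in the table for this gene, holds CACGT 113 bases before the start, and the other 2 MXI1 windows hold no ACGTG on either strand. The BNIP3 window holds CACGTG 134 bases before it. The CA12 window has no ACGTG on either strand but holds the other form of the core, GCGTG, which reads CACGC on the other strand. ACGTG was present on either strand in 15 of 37 promoters of the enzymes (40.5%), 5 of 12 promoters of HIF targets (41.7%) and 21.4% of all 35116 promoters in the table. The 37 promoters belong to 17 enzyme genes, and the 12 promoters to 9 of the HIF target genes. The form GCGTG is not marked by capitals. It also lies, on either strand, in the printed windows of ALDOC, MXI1 and BNIP3 and in 1 of the other 2 MXI1 windows. GCGTG was present on either strand in 37.8% of the enzyme promoters, 58.3% of the HIF target promoters and 36.5% of all promoters. A match describes letters in a window and is not a binding site, and several windows of 1 gene can overlap.

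The remaining 16 enzymes did not pass in any comparison by edgeR with all libraries. LDHB, a lactate dehydrogenase subunit typical of heart, had the lowest p of the enzymes in FTO against Vector. Its level was 78.8, 63.5 and 67.7 CPM in mut-FTO, 72.4, 68.6 and 84.7 CPM in FTO, and 54.6, 53.0 and 44.6 CPM in Vector, and the lowest of the mut-FTO and FTO libraries lay above the highest Vector library. The log2 difference was 0.46 in mut-FTO against Vector (SE 0.16; edgeR adjusted p = 0.107) and 0.57 in FTO against Vector (SE 0.16; edgeR adjusted p = 0.177). Of the exonic bases of LDHB 33.4% are shared with the same-strand gene AC010197.2, so its reads may not all be its own. LDHA, the subunit typical of muscle, averaged 4023 ± 338 CPM in mut-FTO, 4521 ± 109 in FTO and 3528 ± 107 in Vector (SD, n = 3 each), also without overlap of mut-FTO or FTO with Vector. PFKM, the phosphofructokinase of muscle, averaged 42.3 ± 4.69 CPM in mut-FTO, 29.9 ± 2.67 in FTO and 29.3 ± 9.64 in Vector (SD, n = 3 each). Its difference of mut-FTO from FTO, log2 0.50 (SE 0.23), had an adjusted p of 0.364 by edgeR and of 0.0158 without Vector replicate 3. HK1 and HK2, the hexokinases that trap glucose, and PKM, the pyruvate kinase, had log2 differences between −0.10 and 0.091 in all 3 comparisons.

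For most of the 17 enzymes the mean level in Vector was lowered by its replicate 3. PGK1, which forms ATP from 1,3-bisphosphoglycerate, stood at 3245, 3012 and 3613 CPM in mut-FTO, 4067, 3968 and 4054 CPM in FTO, and 3281, 3158 and 1726 CPM in Vector. Vector replicate 3 was the lowest by a wide margin, while the FTO libraries were the highest. The same library was the lowest of 9 for 14 of the 17 enzymes, and the exceptions were HK1, HK2 and PKM. Over the 17 enzymes the median log2 CPM relative to each gene's mean was −0.68 in Vector replicate 3 and between −0.038 and 0.17 in the other 8 libraries. Median log2 differences of the enzymes were 0.28 in mut-FTO against Vector and 0.27 in FTO against Vector, beside −0.0012 and −0.002 over all genes. With Vector replicate 3 left out these medians were 0.11 and 0.093. In FTO against Vector 9 enzymes lay higher in every FTO library, which is 52.9%, beside 10.1% of all genes. These were ALDOC, TPI1, GAPDH, PGK1, PGAM1, ENO1, ENO2, LDHA and LDHB. None of the 17 passed the adjusted threshold by edgeR or limma-voom in that comparison, 1 did by DESeq2 (LDHB), and 4 had an unadjusted p below 0.05. The mitochondrial share of 14.97% moved with the low enzymes of Vector replicate 3, and its part in these values was not tested.

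Regulators of glycolytic flux and the lactate carriers gave no call with all libraries. PFKFB4, which sets the level of fructose 2,6-bisphosphate, an activator of phosphofructokinase, stood at 32.3, 39.3 and 34.8 CPM in mut-FTO, 49.1, 48.1 and 39.3 CPM in FTO, and 38.5, 34.8 and 21.4 CPM in Vector. Its FTO libraries were the highest, although FTO replicate 3 and mut-FTO replicate 2 were nearly level. PFKFB4 differed by log2 0.53 in FTO against Vector (SE 0.21; edgeR adjusted p = 0.361) and by −0.36 in mut-FTO against FTO (SE 0.21; edgeR adjusted p = 0.504). Without Vector replicate 3 its difference of FTO from Vector was log2 0.29. PFKFB3, the related enzyme that is the more abundant of the pair per kilobase, averaged 316 ± 35.2 CPM in mut-FTO, 386 ± 36.9 in FTO and 313 ± 80.6 in Vector (SD, n = 3 each).

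SLC16A3 encodes MCT4, a lactate exporter of glycolytic cells. It was counted at 94.9, 77.7 and 94.1 CPM in mut-FTO, 121, 116 and 117 CPM in FTO, and 192, 186 and 55.2 CPM in Vector. Vector replicates 1 and 2 were the highest of all libraries and Vector replicate 3 the lowest, so the Vector group enclosed both others. With all libraries the log2 difference from Vector was −0.70 in mut-FTO (SE 0.34; edgeR adjusted p = 0.261) and −0.29 in FTO (SE 0.34; edgeR adjusted p = 0.762). Leaving Vector replicate 3 out, the same differences were −1.10 (adjusted p = 7.69e-06) and −0.70 (adjusted p = 0.00292) by edgeR. SLC16A1, which encodes the lactate carrier MCT1, stood at 188, 114 and 145 CPM in mut-FTO, 152, 148 and 162 CPM in FTO, and 103, 135 and 134 CPM in Vector. Its mut-FTO libraries spanned all FTO values and overlapped Vector, while every FTO library was above every Vector library, with a log2 difference of 0.31 (SE 0.19; edgeR adjusted p = 0.546). PDK1, a kinase that inactivates pyruvate dehydrogenase, stood at 46.4, 39.96 and 43.7 CPM in mut-FTO, 45.9, 48.3 and 47.8 CPM in FTO, and 37.8, 38.1 and 50.5 CPM in Vector. Its groups overlapped in every comparison, with log2 differences of −0.13 to 0.17.

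Neither HIF alpha subunit passed the test in any comparison or alternative. HIF1A, the alpha subunit found in most cell types, was counted at 334, 258 and 252 CPM in mut-FTO, 276, 279.9 and 280.1 CPM in FTO, and 206, 263 and 608 CPM in Vector. Vector replicate 3 held more than any other library, and the remaining Vector libraries fell below or within the range of the other groups. Its log2 difference from Vector was −0.35 in mut-FTO (SE 0.31) and −0.36 in FTO (SE 0.31). The sign turned with Vector replicate 3 left out, to 0.26 and 0.23, with adjusted p of 0.265 and 0.407 by edgeR. EPAS1 (HIF-2 alpha) stood at 169, 194 and 192 CPM in mut-FTO, 190.4, 208 and 179 CPM in FTO, and 173, 187 and 239 CPM in Vector. It overlapped between all groups, with log2 differences of −0.11 to −0.054. Per kilobase EPAS1 made up 33.6% ± 5.06 of both alpha subunits in mut-FTO, 34.3% ± 1.70 in FTO and 32.3% ± 8.28 in Vector (SD, n = 3 each).

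The prolyl hydroxylases EGLN1 and EGLN3, which mark HIF alpha for degradation and are themselves HIF targets, had their highest means in FTO. EGLN3 stood at 21.1, 20.2 and 21.1 CPM in mut-FTO, 31.0, 32.1 and 31.6 CPM in FTO, and 26.2, 26.7 and 20.0 CPM in Vector. Every FTO library was above every library of both other groups, and the 3 mut-FTO libraries differed by less than 1 CPM. EGLN3 differed by log2 −0.60 in mut-FTO against FTO (SE 0.17; edgeR adjusted p = 0.0881), short of the threshold with all libraries and past it without Vector replicate 3 (adjusted p = 0.00423) and by DESeq2. EGLN1 averaged 77.8 ± 17.9 CPM in mut-FTO, 99.3 ± 8.04 in FTO and 81.6 ± 6.73 in Vector (SD, n = 3 each), and its mut-FTO and FTO libraries overlapped.

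VEGFA and CA12 were the HIF targets outside glycolysis that fell in mut-FTO. VEGFA, the growth factor of blood vessels that keratinocytes also secrete, stood at 149, 203 and 183 CPM in mut-FTO, 226, 248 and 232 CPM in FTO, and 296, 345 and 355 CPM in Vector. The groups did not overlap, with mut-FTO lowest, FTO between and Vector highest. VEGFA was 1.86-fold lower in mut-FTO than in Vector (log2 −0.90, SE 0.16; edgeR adjusted p = 0.00383), a call kept in all 19 alternatives. Its differences of FTO from Vector (log2 −0.50, SE 0.16; edgeR adjusted p = 0.236) and of mut-FTO from FTO (log2 −0.40, SE 0.16; edgeR adjusted p = 0.266) did not pass. Without Vector replicate 3 the difference of mut-FTO from FTO passed, with an adjusted p of 0.0478.

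CA12, a carbonic anhydrase that helps to regulate pH outside the cell, was counted at 6.33, 7.61 and 6.39 CPM in mut-FTO, 9.56, 7.54 and 8.30 CPM in FTO, and 10.6, 14.9 and 15.5 CPM in Vector. Both mut-FTO and FTO lay below Vector without overlap, and they overlapped each other. CA12 was 2.02-fold lower in mut-FTO than in Vector (log2 −1.01, SE 0.21; edgeR adjusted p = 0.0104). The call was lost without mut-FTO replicate 3 (adjusted p = 0.0578) and kept in the other 18 alternatives. For FTO against Vector the log2 difference was −0.69 (SE 0.21; edgeR adjusted p = 0.217). CA9, a related enzyme and a classical marker of hypoxia, averaged 6.82 ± 0.744 CPM in mut-FTO, 8.85 ± 1.41 in FTO and 8.71 ± 3.93 in Vector (SD, n = 3 each). Of its exonic bases 38.5% are shared with the opposite-strand gene ARHGEF39, so its reads may not all be its own, and in Vector replicate 3 it was lowest of all libraries. CA9 was called lower in mut-FTO than in Vector only without that library (log2 −0.69, edgeR adjusted p = 0.0245) or without it and mut-FTO replicate 2.

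MXI1 rose in FTO. It encodes a partner of MAX that opposes MYC and is induced by HIF. MXI1 stood at 31.3, 29.2 and 32.1 CPM in mut-FTO, 41.3, 40.1 and 35.9 CPM in FTO, and 17.2, 20.8 and 24.2 CPM in Vector. FTO libraries were the highest, mut-FTO libraries came next and Vector libraries were the lowest, with no overlap between any of the groups. The level was 1.88-fold higher in FTO than in Vector (log2 0.91, SE 0.17; edgeR adjusted p = 0.0307). With 1 library left out, this call was kept only without Vector replicate 3 (adjusted p = 0.000763) and lost without any of the other 8 libraries (up to 0.204). In mut-FTO against Vector the log2 difference was 0.57 (SE 0.17; edgeR adjusted p = 0.0636), past the threshold without Vector replicate 3 (adjusted p = 0.00346) and by DESeq2.

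BNIP3, a mitochondrial outer membrane protein that promotes the removal of mitochondria, was highest in FTO. Its values were 205, 207 and 216 CPM in mut-FTO, 306, 284 and 304 CPM in FTO, and 222, 203 and 234 CPM in Vector. Every FTO library exceeded every library of the other groups, which overlapped each other. BNIP3 differed by log2 −0.51 in mut-FTO against FTO (SE 0.14; edgeR adjusted p = 0.0779) and by 0.44 in FTO against Vector (SE 0.14; edgeR adjusted p = 0.224). Neither passed with all libraries. Both passed by DESeq2 and without Vector replicate 3, at adjusted p of 0.00371 and 0.0281 by edgeR.

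ADM, which encodes the vasodilator peptide adrenomedullin, and NDRG1, a protein linked to growth arrest and stress, were also highest in FTO. ADM averaged 371 ± 23.6 CPM in mut-FTO, 532 ± 43.2 in FTO and 321 ± 102 in Vector, and NDRG1 averaged 1455 ± 206 CPM in mut-FTO, 1868 ± 134 in FTO and 1459 ± 111 in Vector (SD, n = 3 each). For both, the FTO libraries did not overlap those of either other group. In FTO against Vector ADM differed by log2 0.73 (SE 0.22; edgeR adjusted p = 0.203), and by 0.47 without Vector replicate 3 (adjusted p = 0.0443). ANKRD37, an ankyrin repeat protein induced by HIF, averaged 7.56 ± 0.907 CPM in mut-FTO, 9.17 ± 1.14 in FTO and 5.08 ± 0.567 in Vector (SD, n = 3 each), but 35.2% of its exonic bases are shared with the opposite-strand gene UFSP2. BNIP3L, a relative of BNIP3, the collagen prolyl hydroxylase subunits P4HA1 and P4HA2, and the histone demethylase KDM3A overlapped with Vector in both mut-FTO and FTO. In BNIP3L, P4HA1 and KDM3A the Vector group ran from the lowest library of 9 to the highest or near it.

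Set against each other, the enzymes and the HIF targets outside glycolysis differed in which library or group stood out. Over the 12 targets the median log2 CPM relative to each gene's mean was −0.051, −0.10 and −0.12 in mut-FTO, 0.23, 0.15 and 0.23 in FTO, and −0.12 in each Vector library. By such medians the FTO libraries lay above the other 6 for the 12 targets. For the 17 enzymes 1 Vector library lay below the other 8. In mut-FTO against FTO, which does not use the Vector libraries for its values, all 12 targets had a fitted difference below 0, with a median of −0.33, beside −0.0094 for the enzymes and −0.0046 for all genes. The libraries of 7 targets (VEGFA, CA9, BNIP3, BNIP3L, NDRG1, ADM and MXI1) lay lower in mut-FTO without overlap, which is 58.3%, beside 14.8% of all genes. So did those of 5 enzymes (PGK1, PGAM1, ENO1, ENO2 and LDHA), or 29.4%, while 2 enzymes (PFKM and ALDOC) lay higher, or 11.8% beside 14.2%. Outside both classes SLC2A1, SLC2A3, PFKFB4, SLC16A3 and EGLN3 lay lower without overlap too, so lower levels than in FTO were not confined to the targets. None of the 12 targets passed the adjusted threshold by edgeR or limma-voom, 4 had an unadjusted p below 0.05, all lower, and DESeq2 called 1 (BNIP3). Without Vector replicate 3, which bears on this comparison mainly through the shared estimate of the spread, edgeR called ADM, BNIP3 and VEGFA lower. That fit called 10.2% of all genes in this comparison.

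**Figure D3:**
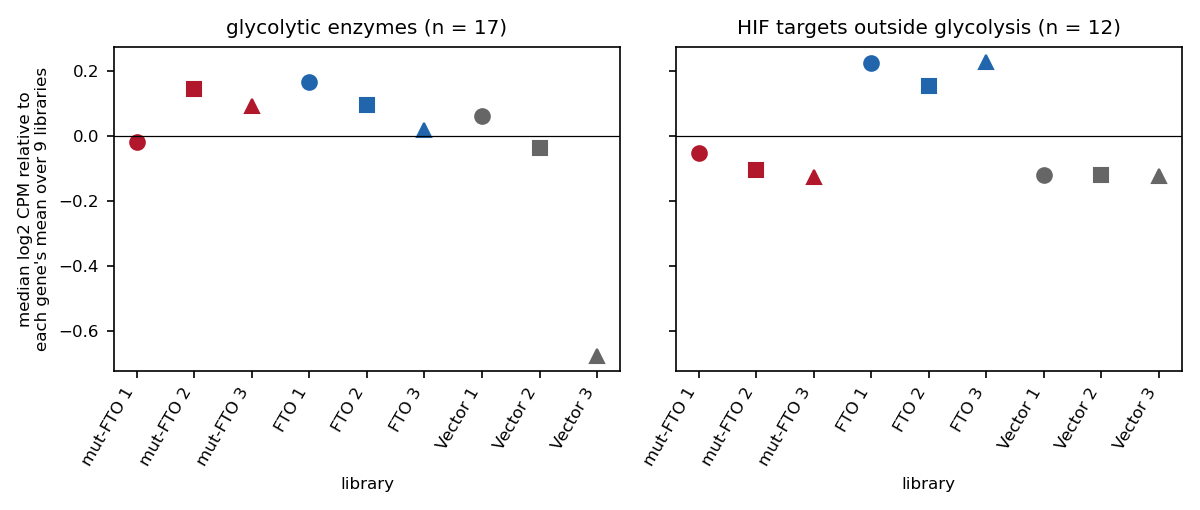
Median over 17 glycolytic enzymes (left) and 12 HIF targets outside glycolysis (right) of log2 CPM relative to each gene's mean over the 9 libraries (vertical axis), for each library (horizontal axis). Vector replicate 3 lies at −0.68 for the enzymes, and the 3 FTO libraries lie at 0.15 to 0.23 for the HIF targets, above the other 6 libraries.

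In FTO against Vector the targets had a median log2 difference of 0.25, and of 0.43 without Vector replicate 3, while the median of the enzymes was 0.27 with all libraries and 0.093 without it. Of the 12 targets 5 were higher in FTO without overlap (41.7%, beside 10.1% of all genes) and 2, VEGFA and CA12, were lower (16.7%, beside 10.9%). Of the enzymes 9 were higher without overlap (52.9%) and 0 lower. Without Vector replicate 3 edgeR called ADM, BNIP3, BNIP3L and MXI1 higher and none of the enzymes, in a fit that called 3.41% of all genes. In mut-FTO against Vector the median over the targets was −0.021, or −0.034 with Vector replicate 3 left out. FTO against Vector and mut-FTO against FTO share the FTO libraries, and a high value there enters both.

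**Figure D4:**
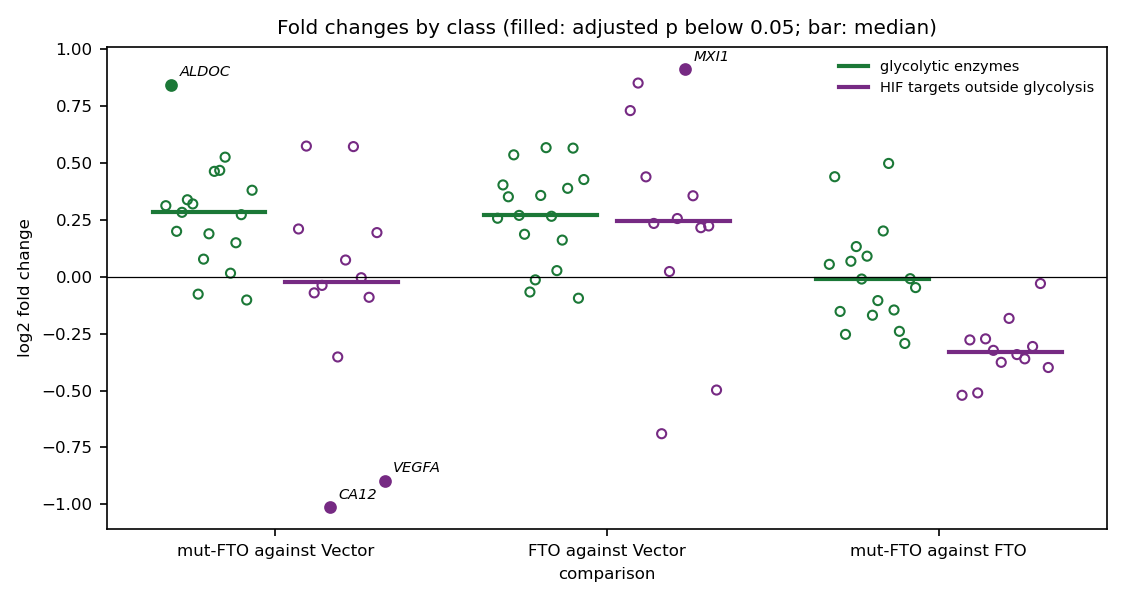
Log2 fold change (vertical axis) of each of 17 glycolytic enzymes and 12 HIF targets outside glycolysis in the 3 comparisons; filled points have an adjusted p below 0.05 and bars are medians. All 12 HIF targets lie below 0 in mut-FTO against FTO, with a median of −0.33, while the enzymes centre on −0.0094.

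Within the families of related proteins given here, 1 member carried most of the transcript per kilobase of its longest principal transcript in GENCODE release 29. ALDOA, at 2517, 2422 and 2026 CPM per kilobase in mut-FTO, FTO and Vector, exceeded ALDOC at 94.8 in mut-FTO, 69.8 in FTO and 52.8 in Vector. PFKP, the platelet type of phosphofructokinase, made up 70.9% ± 0.64 of the transcript of the 3 phosphofructokinase genes in mut-FTO, 76.1% ± 0.158 in FTO and 77.4% ± 3.22 in Vector (SD, n = 3 each). PFKL, the liver type, made up 25.2% ± 0.833 in mut-FTO, 21.3% ± 0.427 in FTO and 19.7% ± 2.78 in Vector. The mut-FTO libraries had the lowest PFKP share, and their PFKL share was higher than in FTO by more than the spread of either group. HK2 made up 19.9% ± 2.34 of both hexokinases in mut-FTO, 18.6% ± 0.49 in FTO and 18.02% ± 1.39 in Vector, and these ranges of mean ± SD overlapped. ENO2, the neuronal enolase, made up 1.09% ± 0.0381 of ENO1 and ENO2 in mut-FTO, 1.17% ± 0.0337 in FTO and 1.03% ± 0.024 in Vector (SD, n = 3 each). LDHB made up 2.66% ± 0.226 of both lactate dehydrogenase subunits in mut-FTO, 2.54% ± 0.221 in FTO and 2.21% ± 0.167 in Vector. Such shares assume that the principal transcript is the one expressed. They also assume that reads belong to the named gene. Of the exonic bases of ALDOA 42.3% are shared with a same-strand gene and 13.3% with an opposite-strand gene, and of those of LDHB 33.4% with a same-strand gene. GAPDH had the highest level of the 40 genes per kilobase in each group, at 4815, 4591 and 3806 CPM per kilobase in mut-FTO, FTO and Vector, and CA12 the lowest, at 1.06 in mut-FTO, 1.32 in FTO and 2.13 in Vector.

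Other genes of the same pathways were read from lists of pathway genes, which were chosen with earlier results of these data known. Of 32 tested genes around glycolysis and pyruvate use, 2 rose and 1 fell in mut-FTO against Vector (9.38%, near the 7.78% of all genes), and none passed in the other comparisons. BPGM, which makes 2,3-bisphosphoglycerate in a side branch of glycolysis, rose 2.59-fold to 19.1 ± 1.94 CPM in mut-FTO, against 7.36 ± 1.85 CPM in Vector (SD, n = 3 each; edgeR adjusted p = 0.00191). PDK2, another pyruvate dehydrogenase kinase, rose 1.96-fold (adjusted p = 0.0122), and PDHA1, a subunit of the pyruvate dehydrogenase that these kinases inactivate, fell 1.53-fold (adjusted p = 0.0459, edgeR). At an unadjusted p below 0.05, edgeR gave 2 higher and 1 lower in FTO against Vector, beside 11.9% of all genes, and 4 higher and 2 lower in mut-FTO against FTO, beside 14.0%. DESeq2 called 0 and 2 of these genes in the same comparisons, and limma-voom 0 in both. Of 11 tested genes of the pentose phosphate pathway, PRPS2, which makes the ribose donor of nucleotide synthesis, fell 1.82-fold in mut-FTO against Vector (edgeR adjusted p = 0.0123), a share of 9.09%, near the background of 7.78%. Of 18 tested regulators of HIF, ARNT2, a partner of the alpha subunits, fell 2.19-fold in mut-FTO against Vector to 6.19 ± 0.321 CPM in mut-FTO, against 13.6 ± 1.35 CPM in Vector (SD, n = 3 each; edgeR adjusted p = 0.00213). This is 5.56% of that list, below the 7.78% of all genes. None of the 11 tested genes of the MYC network, to which MXI1 belongs, passed by edgeR, DESeq2 or limma-voom. With edgeR, unadjusted p below 0.05 numbered 1 lower in mut-FTO against Vector, 1 higher and 1 lower in FTO against Vector, and 2 lower in mut-FTO against FTO, beside 21.1%, 11.9% and 14.0% of all genes.

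The genes of lowest p that were not called in these lists were as follows, all by edgeR. Around glycolysis, FTO against Vector was led by BPGM (log2 0.66, SE 0.22; adjusted p = 0.248) and FBP1 (log2 −0.82, SE 0.29; adjusted p = 0.289), which encodes a phosphatase of glucose synthesis. In mut-FTO against FTO the leading genes were BPGM (log2 0.71, SE 0.21; adjusted p = 0.121) and PDK2 (log2 0.66, SE 0.21; adjusted p = 0.141). In the pentose phosphate list, RBKS, a ribose kinase, followed PRPS2 in mut-FTO against Vector at log2 0.83 and led FTO against Vector (log2 0.61, SE 0.24; adjusted p = 0.342). TALDO1, the transaldolase, came next at log2 0.44, or 0.15 without Vector replicate 3. PRPS2 (log2 −0.60, SE 0.18; adjusted p = 0.132) led mut-FTO against FTO before PRPS1 at log2 −0.39. Among HIF regulators ARNT2 had the lowest p in the other comparisons as well, at log2 −0.56 in FTO against Vector (adjusted p = 0.238) and −0.57 in mut-FTO against FTO (adjusted p = 0.147). It was followed by RBX1, a component of the ubiquitin ligase that acts on HIF alpha, at log2 0.55 in mut-FTO against Vector and 0.55 in FTO against Vector, and by USP20, a deubiquitinase, at log2 0.52 in mut-FTO against FTO. Unadjusted p below 0.05 numbered 1 of 11 in the pentose phosphate list and 4 of 18 among HIF regulators in FTO against Vector, beside 11.9% of all genes. In mut-FTO against FTO they numbered 1 of 11 and 2 of 18, beside 14.0%. DESeq2 called none in FTO against Vector and 1 in each list in mut-FTO against FTO, and limma-voom none in either. In the MYC network, MGA, a MAX partner, had log2 −0.46 in mut-FTO against Vector and −0.58 in FTO against Vector. Without Vector replicate 3 these values were −0.16 and −0.30. MYCL, a MYC relative, had log2 0.68 in FTO against Vector and −0.69 in mut-FTO against FTO. MYC had −0.43 in mut-FTO against Vector, or −0.24 without Vector replicate 3, and −0.50 in mut-FTO against FTO.

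Genes of a longer list of other HIF targets were called in both directions. This list too was chosen with earlier results of these data known, so a share above that of all genes is no test of the list. Of its 49 tested genes 6 rose and 7 fell in mut-FTO against Vector (26.5%, beside 7.78% of all genes), 2 rose and 1 fell in FTO against Vector (6.12%, beside 0.744%), and 6 fell in mut-FTO against FTO (12.2%, beside 2.33%). STC1, a secreted glycoprotein hormone, averaged 37.0 ± 6.44 CPM in mut-FTO, 83.2 ± 4.40 in FTO and 233 ± 111 in Vector, the same order as SLC2A3 (SD, n = 3 each). It fell 6.30-fold in mut-FTO against Vector, 2.80-fold in FTO against Vector and 2.25-fold in mut-FTO against FTO (edgeR adjusted p = 0.000123, 0.0273 and 0.0455). IGFBP3, which binds insulin-like growth factors, rose 2.50-fold in mut-FTO and 2.30-fold in FTO against Vector (edgeR adjusted p = 0.000242 and 0.0033). LOX, a crosslinking enzyme of collagen, rose 3.35-fold in mut-FTO and 2.24-fold in FTO against Vector (edgeR adjusted p = 0.000708 and 0.0452). PLIN2, which coats lipid droplets, and PPP1R3B, a glycogen-targeting phosphatase subunit, fell 2.14-fold and 2.15-fold in mut-FTO against FTO (edgeR adjusted p = 0.00542 and 0.00841). Each gene called and named from these lists kept its direction and its call without Vector replicate 3. STC1 in mut-FTO against Vector was then 4.63-fold lower (edgeR adjusted p = 3.5e-08). Many genes of the longer list are known to answer to signals other than oxygen.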

How the data were processed

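Poly(A) RNA of 9 HaCaT libraries was sequenced by the authors, who deposited 1 table of whole-number counts per gene, not normalized. HISAT2 and StringTie had handled the reads and the mouse build mm10 is named, per the submitters' processing notes, although the symbols are human. Versions, the program that counted, strand use and gene models are not given in sources used here, and no coordinate of a counted feature is printed. Columns were matched to samples by their letters (N for Vector, F for FTO, tF for mut-FTO) and numbers.

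From the deposited counts, tests were run in edgeR 4.0.16 (R 4.3.3). The filterByExpr filter with group set (minimum count 10, minimum total 15) kept 13713 genes, and TMM scaled the libraries of 32222203 to 37846027 counts. The 9 libraries entered 1 robust quasi-likelihood model with a term per group, and p-values were adjusted by the Benjamini-Hochberg method over all genes, with calls below 0.05. SE is the size of the log2 fold change divided by the root of F, and a prior count of 2 was added for log2 CPM. Members of the text's lists and the lists themselves were chosen with earlier results of these data known. Named are SLC2A3, MXI1, ALDOC, every called member and the member of lowest p per role and comparison, and of other lists the 2 to 4 of lowest p. A gene that this rule names in another list is not reported here. Other members with their values were chosen after these were seen. Of 217 listed symbols 215 matched directly and 2 by an older symbol in RefSeq. The tests were checked on simulated counts. Libraries of a group differed by more than sampling noise (chi-square per degree of freedom of 12.7 or more), so none was treated as the same library sequenced again. This does not show that the cultures were separate.

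Transcript lengths and exon overlaps came from GENCODE release 29, promoters from RefSeq (GRCh38.p14), where 35 of the 40 members matched; SLC2A3, SLC16A1, VEGFA, BNIP3L and NDRG1 did not. Counts of 20 members could include reads of an opposite-strand gene that shares exonic bases. Some members, LDHB and ALDOA among them, also share exonic bases with a same-strand gene. Alternatives were RLE factors, library size alone, leaving out assembled loci and mitochondrially encoded genes, DESeq2 1.42.0, limma-voom (limma 3.58.1), no filter, a filter at a mean of 10 counts, a fit of the 6 libraries compared alone, the replicate number as a block, each library left out, and Vector replicate 3 with mut-FTO replicate 2 left out.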

Additional observations from a re-analysis of the deposited data

How the results depend on the processing

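Counts of members called moved most with Vector replicate 3. Over the fits that left out each of the 9 libraries in turn, members called in mut-FTO against Vector ranged from 0 to 2 higher and 2 to 5 lower, in FTO against Vector from 0 to 4 higher and 0 to 2 lower, and in mut-FTO against FTO from 0 to 2 higher and 1 to 6 lower. The highest count of each came without Vector replicate 3, where the same fits called 14.97%, 3.41% and 10.2% of all genes. With Vector replicate 3 and mut-FTO replicate 2 both left out, the counts were 4 higher and 6 lower, 8 higher and 3 lower, and 1 higher and 9 lower in these comparisons. These are 25%, 27.5% and 25% of the members, in a fit that called 17.3%, 7.55% and 8.6% of all genes. DESeq2 called 2 members higher and 3 lower in mut-FTO against Vector, 4 higher and 1 lower in FTO against Vector, and 3 lower in mut-FTO against FTO. It called 12.3%, 2.72% and 5.48% of all genes in these comparisons. The fit of only the 6 libraries compared called 0 higher and 3 lower in mut-FTO against Vector and no member in FTO against Vector. In mut-FTO against FTO it called 2 higher and 5 lower. The shares of all genes called by that fit were 4.63%, 0.306% and 9.1% in these comparisons. In FTO against Vector, library size alone and limma-voom each called 1 lower. Of all 13713 genes library size alone called 38 higher and 77 lower there, and limma-voom called 0.685%.

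The replicate block, with the replicate number as a term, left 1 member higher and 3 lower in mut-FTO against Vector and 1 lower in mut-FTO against FTO, and called 0 higher in FTO against Vector. That fit called 5.93%, 1.62% and 0.489% of all genes in the same order. Correlations of libraries with the same number ran from −0.13 to 0.11, so the numbers were not taken to pair the samples.

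Median log2 differences of the enzymes kept their sign in both comparisons with Vector, and leaving out 1 library gave 0.11 to 0.43 in mut-FTO and 0.093 to 0.40 in FTO. With both libraries left out they were 0.028 in mut-FTO, against 0.28 with all libraries, and 0.10 in FTO. In mut-FTO against FTO the median of the enzymes ran from −0.095 to 0.088 with 1 library left out and was −0.11 with both left out. The median of the HIF targets ran from −0.072 to 0.0022 in mut-FTO against Vector, from 0.21 to 0.43 in FTO against Vector and from −0.35 to −0.30 in mut-FTO against FTO with 1 library left out. Scaling by library size alone gave −0.096, 0.21 and −0.37 in these comparisons, where it shifted the median of all genes to −0.074, −0.037 and −0.043. By limma-voom the median of the targets was 0.0064 in mut-FTO against Vector and 0.29 in FTO against Vector, and with both libraries left out 0.44 in FTO against Vector.

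Among the 14 genes carried through every alternative, signs turned only where no alternative called the gene in that comparison. In mut-FTO against Vector the log2 difference with 1 library left out ran from −0.057 to 0.33 for PFKFB4, −0.031 to 0.18 for PDK1, −0.63 to 0.26 for HIF1A and −0.21 to 0.030 for EPAS1. In FTO against Vector it ran from −0.64 to 0.23 for HIF1A and −0.15 to 0.074 for EPAS1. In mut-FTO against FTO it ran from −0.20 to 0.0052 for LDHB, −0.25 to 0.12 for SLC16A1, −0.13 to 0.086 for HIF1A and −0.093 to 0.0023 for EPAS1. With both libraries left out PFKFB4 stood at −0.15 and HIF1A at 0.30 in mut-FTO against Vector, HIF1A at 0.24 and EPAS1 at 0.083 in FTO against Vector, and SLC16A1 at 0.10 in mut-FTO against FTO. Library size alone gave −0.026 for PDK1 in mut-FTO against Vector and −0.021 for HIF1A in mut-FTO against FTO. The cause was not tested for any of these. The values of FTO against Vector rest on few calls. With 3 libraries a group, and with Vector replicate 3 and mut-FTO replicate 2 apart from their groups, a difference that misses the threshold does not show that levels were alike.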
